A study of Mus musculus with 6 samples.

Results

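Cxcl15 and the other neutrophil-attracting CXC chemokine genes were examined together with both of their receptor genes in sorted mouse prostate tumor cells. The members were 9 genes of 30142 measured: Cxcl15, Cxcl5, Cxcl1, Cxcl2, Cxcl3, Ppbp, Pf4, Cxcr2 and Cxcr1. Each was read from the array feature annotated with its symbol alone, and each had 1 such feature (transcript cluster). Affymetrix MTA 1.0 arrays, 1 per tumor, covered 3 tumors of mice treated with degarelix (titled 7dPC) and 3 untreated tumors (titled Intact). Degarelix blocks the pituitary receptor for gonadotropin-releasing hormone and so withdraws androgen; it was given under the skin once tumors had reached about 500 mm2 (unit as in the labels). All samples are labelled male and came from allografts of MCRedAL, a mouse prostate cancer line marked with the red fluorescent protein mCherry. The labels do not explain 7dPC, give no age or strain, and record no processing batch. Tumor cells of both groups were sorted as mCherry positive and as negative for the immune markers CD45, F4/80 and CD11b, from tumors of similar size. One grafted line stands behind all 6 tumors, so they do not sample different cancers.

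CXC chemokines are small secreted proteins that bind G protein-coupled receptors and the sugar chains of the cell surface, and so guide leukocytes. Those that carry the amino acids glutamate, leucine and arginine ahead of the CXC motif attract neutrophils, chiefly through the receptor CXCR2. In mouse their genes lie side by side on chromosome 5. Many of them are induced through NF-kB by interleukin-1, tumor necrosis factor and interleukin-17.

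Values are log2 expression after RMA, the background correction, normalization and summary used by the submitters. The arrays also carry 23 background probe sets with no target, whose values lay between 2.14 and 6.93 and whose brightest per array lay between 6.59 and 6.93. Between 30.3% and 35.1% of genes per array lay above that brightest background value. Groups were compared with limma across all 30142 genes, with Benjamini-Hochberg adjustment and a threshold of 0.05. Every difference below is a log2 value, degarelix minus untreated, with its moderated standard error (SE). Of the keratins, Krt8 averaged 11.92 ± 0.14 in degarelix and 11.55 ± 0.33 in untreated tumor cells (SD, n = 3 each), and the prostate luminal factor Foxa1 averaged 9.42 ± 0.05 and 9.48 ± 0.11. The epithelial adhesion genes Epcam and Cdh1 were within the background range, at 3.90 ± 0.07 and 4.98 ± 0.15 in degarelix and 3.85 ± 0.05 and 4.85 ± 0.06 in untreated cells. Of 10 measured epithelial markers, 4 lay above every background value on all degarelix arrays and 5 on all untreated arrays. In this list Krt19 rose by 1.88 (SE 0.12, limma adjusted p = 8.85e-05) and Cldn3, a claudin of tight junctions, fell by 0.31 (limma adjusted p = 0.0385), with a median difference of 0.15. The Cldn3 call was lost without any single array other than untreated replicate 1 (limma adjusted p = 0.0667 to 0.137), with median centring (0.0505) and with cyclic loess (0.0783).

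Of the 9 genes 3 rose after degarelix, none fell and 6 did not pass the test, and the 3 were Cxcl15, Cxcl5 and Cxcl2. At an unadjusted limma p under 0.05, 0 of the 9 fell. Over all genes 11.7% passed in either direction, 4.19% being higher and 7.51% lower. The median difference was 0.13 over the 9 genes and 0.04 over all genes. The degarelix values lay wholly above the untreated values for the same 3 genes, as they did for 14.8% of all genes, and the other 6 overlapped. Over all genes the groups were apart in either direction for 31.2%. The genes were chosen with earlier results of these data known, so their counts describe them and do not support a pattern of the family. In bulk RNA, a change in the share of cells that express a gene cannot be told apart from a change in RNA per cell.

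**Figure D1:**
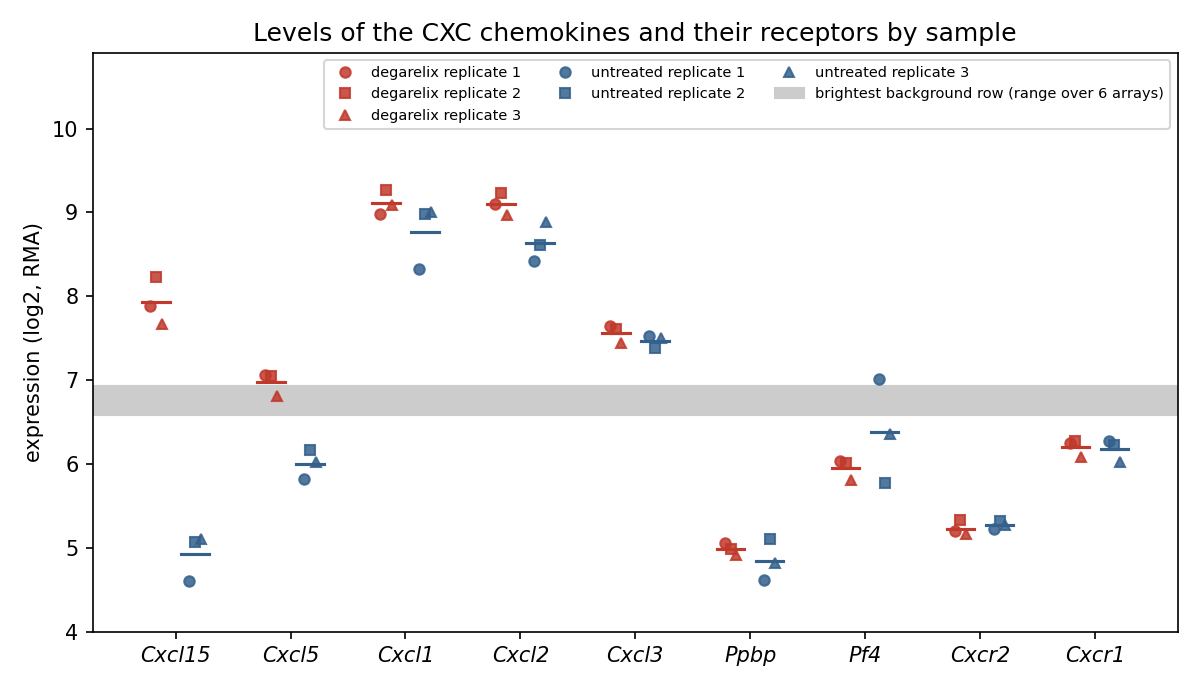
Expression of the 9 genes (log2, RMA) in each sample, with degarelix samples in red to the left of untreated samples in blue; marker shapes give the replicate, horizontal lines the group means, and the grey band the range of the brightest background probe set over the 6 arrays. Cxcl15 lies between 7.67 and 8.23 in degarelix cells and between 4.61 and 5.11 in untreated cells, on opposite sides of the band.

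Cxcl15 encodes a mouse neutrophil chemokine, first described in lung and known as lungkine. It measured 7.89, 8.23 and 7.67 in degarelix replicates 1, 2 and 3, against 4.61, 5.07 and 5.11 in untreated replicates 1, 2 and 3. Every degarelix value exceeded all 23 background probe sets of its array, whereas the untreated values exceeded 14 or 15 of them. The gene therefore stood above the background in degarelix cells and within it in untreated cells. The difference was 3.001 (SE 0.17, 95% interval 2.62 to 3.39, limma adjusted p = 5.68e-05), or 8.01-fold. Since the untreated level is within the background range, a lower bound was also taken by setting each untreated array to its brightest background value. On that footing the mean of Cxcl15 was at least 2.33-fold higher in degarelix cells, a bound that makes no allowance for sampling error.

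Cxcl5, whose product LIX is a ligand of CXCR2, had the next largest measured difference among the 9 genes. Its values were 7.07, 7.05 and 6.82 in degarelix replicates 1, 2 and 3, against 5.82, 6.16 and 6.03 in untreated replicates 1, 2 and 3. Again all degarelix values lay above every background probe set of their arrays, by a small margin, and no untreated value did. The difference was 0.97 (SE 0.11, 95% interval 0.73 to 1.22, limma adjusted p = 9.12e-04), or 1.96-fold. Set against the brightest background values of the untreated arrays, the Cxcl5 mean was at least 1.204-fold higher, again with no allowance for sampling error.

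Cxcl1, Cxcl2 and Cxcl3, the mouse genes closest to the human GRO chemokines, were above the background on all 6 arrays and so were already expressed in untreated tumor cells. Cxcl2, also called MIP-2, measured 9.10, 9.23 and 8.97 in degarelix replicates 1, 2 and 3, against 8.42, 8.61 and 8.89 in untreated replicates 1, 2 and 3. The groups were separated by a narrow gap, between degarelix replicate 3 and untreated replicate 3. Cxcl2 rose by 0.46 (SE 0.12, 95% interval 0.18 to 0.74, limma adjusted p = 0.0455), or 1.38-fold. That call was lost with median centring (limma adjusted p = 0.103) and on leaving out degarelix replicate 1 (0.138), 2 (0.155) or 3 (0.0532) or untreated replicate 1 (0.0746) or 2 (0.118).

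Cxcl1, also called KC, measured 8.98, 9.27 and 9.08 in degarelix replicates 1, 2 and 3, against 8.33, 8.98 and 9.01 in untreated replicates 1, 2 and 3. Untreated replicate 1 alone lay well below the rest, and the other untreated values overlapped those of degarelix cells. The difference was 0.34 (SE 0.17, 95% interval -0.06 to 0.74, limma adjusted p = 0.258) and fell short of the threshold, and without untreated replicate 1 it was 0.12 (limma adjusted p = 0.424). Cxcl3 varied least of these genes, with 7.65, 7.62 and 7.44 in degarelix replicates 1, 2 and 3 and 7.52, 7.38 and 7.50 in untreated replicates 1, 2 and 3. Its difference was 0.10 (SE 0.08, limma adjusted p = 0.466), and the 95% interval of -0.09 to 0.28 holds no change above 1.22-fold.

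**Figure D2:**
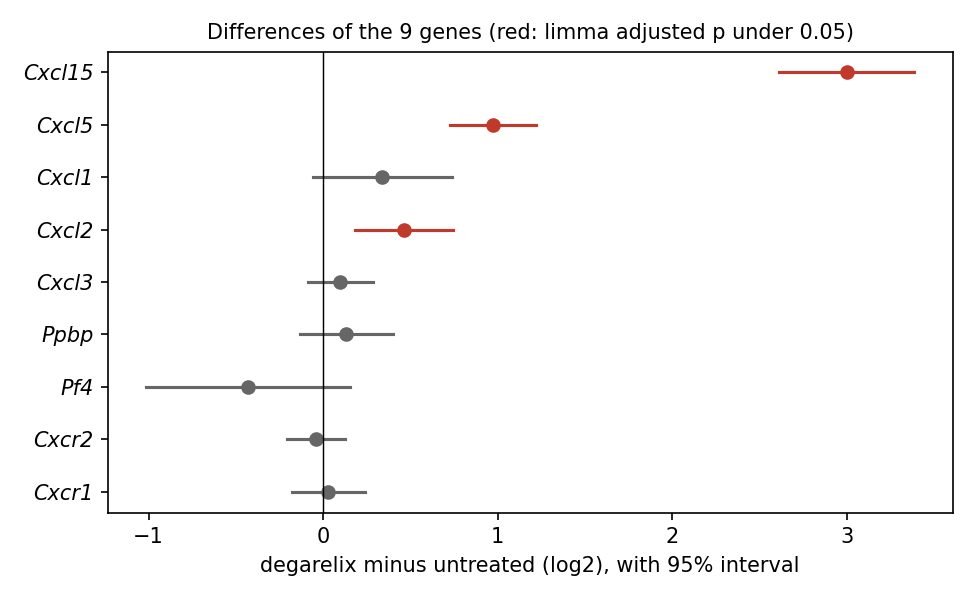
Difference between degarelix and untreated tumor cells for the 9 genes (log2, horizontal axis), with points for the limma estimate and lines for its 95% interval; red marks an adjusted p under 0.05. The interval of Cxcl15, 2.62 to 3.39, lies clear of those of all other genes, of which Cxcl5 reaches highest at 1.22; the untreated values of both genes are within the background range.

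The windows upstream of these genes are shown because the 3 genes that were bright in untreated cells share a sequence there that the Cxcl15 window does not hold. RefSeq promoter windows (build GRCm38.p6) were used for 8 of the 9 genes, all but Cxcl5, and the 250 bases before the annotated start were searched on both strands. Capitals mark matches to the NF-kB motif (GGGA, any 2 bases, then TNCC) and to the TATA box TATAAA; all 4 sequences are from the plus strand, 5′ to 3′.
Cxcl15 promoter, chr5:90794284-90794533: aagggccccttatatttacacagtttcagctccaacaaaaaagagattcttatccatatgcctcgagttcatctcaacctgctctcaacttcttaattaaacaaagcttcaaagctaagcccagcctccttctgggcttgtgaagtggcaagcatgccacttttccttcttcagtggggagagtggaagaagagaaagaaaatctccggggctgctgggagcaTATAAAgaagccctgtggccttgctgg
Cxcl1 promoter, chr5:90890995-90891244: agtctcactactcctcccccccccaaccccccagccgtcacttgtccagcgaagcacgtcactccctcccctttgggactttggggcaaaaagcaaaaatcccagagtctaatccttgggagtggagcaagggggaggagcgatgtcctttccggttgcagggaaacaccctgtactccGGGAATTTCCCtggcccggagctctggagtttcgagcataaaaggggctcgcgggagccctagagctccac
Cxcl2 promoter, chr5:90903649-90903898: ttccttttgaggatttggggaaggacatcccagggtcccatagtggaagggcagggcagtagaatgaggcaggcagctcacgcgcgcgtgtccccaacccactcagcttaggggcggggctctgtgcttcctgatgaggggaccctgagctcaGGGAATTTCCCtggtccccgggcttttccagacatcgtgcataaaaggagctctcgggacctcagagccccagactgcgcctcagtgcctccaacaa
Cxcl3 promoter, chr5:90785851-90786100: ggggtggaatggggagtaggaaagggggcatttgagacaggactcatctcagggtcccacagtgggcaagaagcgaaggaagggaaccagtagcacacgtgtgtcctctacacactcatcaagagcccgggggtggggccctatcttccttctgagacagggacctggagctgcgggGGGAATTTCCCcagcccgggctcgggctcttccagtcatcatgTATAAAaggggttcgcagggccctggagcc
The NF-kB motif was found in the windows of Cxcl1, Cxcl2 and Cxcl3, starting 71, 97 and 73 bases before the start. In each case the matches on the 2 strands overlap and together read GGGAATTTCCC. It was not found in the windows of Cxcl15, Ppbp, Pf4, Cxcr2 and Cxcr1, and 3.33% of 32851 mouse promoter windows of this length hold it. Cxcl15 had a TATA box 27 bases before its start, as Cxcl3 and Ppbp had at 30 bases, against 12.4% of all windows. The half-site AGAACA, bound by androgen and glucocorticoid receptors, was in the windows of Cxcr2 and Cxcr1 (16.1% of all windows), the AP-1 motif TGANTCA in that of Ppbp (6.75%) and the C/EBP motif TTGCNNAA in that of Pf4 (9.56%). None of these 3 motifs was in the 4 windows printed. A match is a description of the letters in the window, and sites outside it were not searched. Whether a motif bears on the level of its gene was not tested.

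Ppbp and Pf4 encode platelet chemokines. The Ppbp precursor yields the neutrophil attractant NAP-2, whereas Pf4, platelet factor 4, lacks the glutamate-leucine-arginine motif and is a weak neutrophil attractant. Ppbp measured 5.06, 4.98 and 4.91 in degarelix replicates 1, 2 and 3, against 4.62, 5.11 and 4.83 in untreated replicates 1, 2 and 3, and never exceeded more than 15 of the 23 background probe sets. Its difference was 0.13 (SE 0.12, limma adjusted p = 0.496), and it lay within the background range in both groups.

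Pf4 was the only one of the 7 chemokine genes with a difference below 0. It measured 6.03, 6.02 and 5.81 in degarelix replicates 1, 2 and 3, against 7.01, 5.78 and 6.36 in untreated replicates 1, 2 and 3. Only untreated replicate 1 lay above all background probe sets, and the untreated values spread widely (SD 0.62, against 0.13 in degarelix cells). The difference was -0.43 (SE 0.26, limma adjusted p = 0.322), short of the threshold, and -0.73 without untreated replicate 2, where it passed (limma adjusted p = 0.0461). Pf4 is also made by macrophages, and 14 of 15 macrophage and monocyte markers shared its order among untreated tumors, highest in replicate 1 and lowest in replicate 2, as did 16.9% of all genes. The summed level of these 15 markers (log2) was 11.11 to 11.27 in degarelix cells and 10.23 to 11.28 in untreated cells. Without Ly6c2, the brightest and the one that did not share the order, it was 9.75 to 9.82 in degarelix cells, and 10.95, 9.64 and 10.17 in untreated replicates 1, 2 and 3. Of the 15 markers 6 exceeded the brightest background value on at least 1 array. The genes of the antigens used in the sort, Ptprc (CD45), Adgre1 (F4/80) and Itgam (CD11b), did not: Ptprc was at 3.72 to 3.77 in degarelix and 3.68 to 4.47 in untreated cells. The part of macrophage RNA in the Pf4 values was not tested.

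The receptors Cxcr2 and Cxcr1, carried mainly by neutrophils, were not seen above the background in either group. Cxcr2 measured 5.20, 5.33 and 5.16 in degarelix replicates 1, 2 and 3, against 5.22, 5.32 and 5.27 in untreated replicates 1, 2 and 3, and exceeded 15 of 23 background probe sets on every array. Its 95% interval ran from -0.21 to 0.13 around a difference of -0.04 (limma adjusted p = 0.752). Cxcr1 measured 6.26, 6.27 and 6.09 in degarelix replicates 1, 2 and 3, against 6.28, 6.23 and 6.02 in untreated replicates 1, 2 and 3. The difference of 0.03 (SE 0.09, limma adjusted p = 0.859) had an interval of -0.18 to 0.24. At levels within the background range a change could have been missed. The sort selected against cells with immune markers, so these levels do not describe receptors on leukocytes of the tumors.

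As measured, the Cxcl15 difference exceeded that of each other gene by 2.03 (Cxcl5) to 3.43 (Pf4) on the log2 scale. The untreated side of that difference lies within the background range, as do both groups' Ppbp, Cxcr2 and Cxcr1 and most Pf4 values, so these gaps are not exact. With the untreated arrays set at their brightest background value, the difference of means was at least 1.22 for Cxcl15 and at least 0.27 for Cxcl5. These bounds make no allowance for sampling error.

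Untreated replicate 1 was the lowest untreated sample for 5 of the 7 chemokine genes, being below the mean of the other untreated samples by 0.67 for Cxcl1, 0.48 for Cxcl15, 0.35 for Ppbp, 0.33 for Cxcl2 and 0.28 for Cxcl5. The other 2, Pf4 and Cxcl3, were highest in that sample, above the same mean by 0.94 and 0.08. The untreated values of Cxcl15, Cxcl5 and Ppbp are within the background range. Over all genes, 39.3% had their lowest untreated value in that sample. Degarelix replicate 3 was the lowest degarelix sample for 6 of the 7 chemokine genes and for both receptors, against 48.5% of all genes. Cxcl1 was the exception, lowest in degarelix replicate 1.

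Genes with and without a call lay next to each other in the cluster. In gene order on chromosome 5 (RefSeq, GRCm38.p6), Cxcl5, Ppbp, Pf4, Cxcl3, Cxcl15, Cxcl1 and Cxcl2 follow one another with no other protein-coding gene between them. Cxcl15 lies between Cxcl3 and Cxcl1, neither of which passed the test. On the Cxcl5 side the nearest neighbour, Rassf6, a Ras-association domain gene, measured 6.91, 6.98 and 7.18 in degarelix replicates 1, 2 and 3, against 7.42, 7.52 and 7.94 in untreated replicates 1, 2 and 3, and fell by 0.60 (SE 0.14, limma adjusted p = 0.0244). That call was lost with median centring (0.0503) and without degarelix replicate 1 (0.1) or 2 (0.0806). Afm and Albfm1, genes of the albumin family beyond it, had differences of 0.11 and 0.05. On the Cxcl2 side Mthfd2l, a folate enzyme gene, and the epidermal growth factor family genes Epgn and Ereg had differences of -0.18, 0.04 and 0.31, none past the test. Ereg was nearest to the threshold (limma adjusted p = 0.0598) and passed without degarelix replicate 3 (0.0495) and with array weights (0.00923). All values of Afm, Albfm1, Epgn and Ereg were within the background range, where a change could have been missed.

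**Figure D3:**
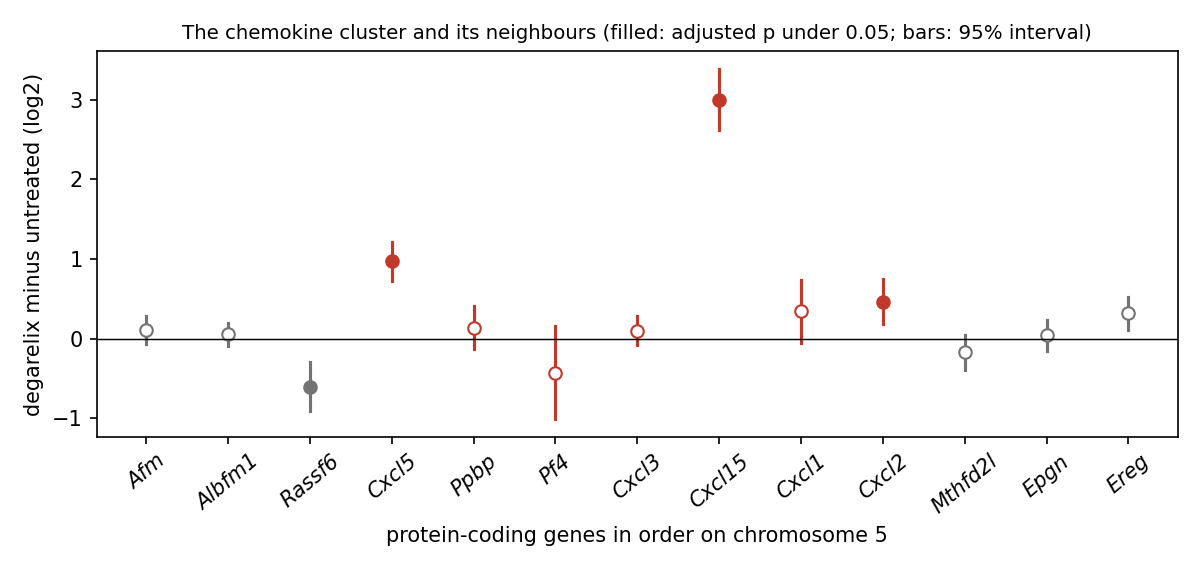
Differences between degarelix and untreated tumor cells (log2, vertical axis) for the protein-coding genes of the chemokine cluster and the 3 nearest on each side, in order on chromosome 5; red marks the chemokine genes, filled points an adjusted p under 0.05 and bars the 95% interval. Cxcl15 stands at 3.001 between Cxcl3 at 0.10 and Cxcl1 at 0.34. All values of Afm, Albfm1, Epgn and Ereg are within the background range.

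Other genes that bear on chemokine action were taken from 6 lists, of whose 117 entries 103 were measured; some, such as S100a8, are also in a marker list. In these lists 29 genes rose and 5 fell, beside shares over all genes of 4.19% higher and 7.51% lower and a median difference of 0.04. Of 30 genes of NF-kB and interleukin-17 control, 16 rose and 1 fell, with a median difference of 0.34. Of the 30, 25 lay above every background value on all degarelix arrays and 20 on all untreated arrays. Bright genes passed more often: of 10259 genes above the brightest background on 3 arrays, 1007 were higher and 2076 lower in limma. Cebpd, a C/EBP transcription factor gene, rose by 1.15 (SE 0.13, limma adjusted p = 9.13e-04), and its values were 7.77, 7.56 and 7.67 in degarelix replicates 1, 2 and 3, against 6.23, 6.72 and 6.61 in untreated replicates 1, 2 and 3. Genes that restrain the pathway were among the rises: Zc3h12a, which encodes the RNase regnase-1, by 0.78 (SE 0.12) and the ubiquitin-editing enzyme gene Tnfaip3 by 0.48 (SE 0.07). Nfkbiz, a nuclear cofactor gene, rose by 0.59 (SE 0.10), and Arid5a, whose product stabilises cytokine mRNAs, by 0.45 (SE 0.07). The subunit genes Rel and Relb rose by 0.46 and 0.39. The kinase gene Ikbkb fell by 0.28 (limma adjusted p = 0.0343), a call lost under 8 alternatives besides the 1.2-fold test, among them every single-array omission other than that of untreated replicate 1 (limma adjusted p = 0.0523 to 0.135). Of the 17 calls in this list, 7 held under every alternative other than the test against a 1.2-fold change: Relb, Rel, Nfkbiz, Tnfaip3, Cebpd, Zc3h12a and Arid5a.

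**Figure D4:**
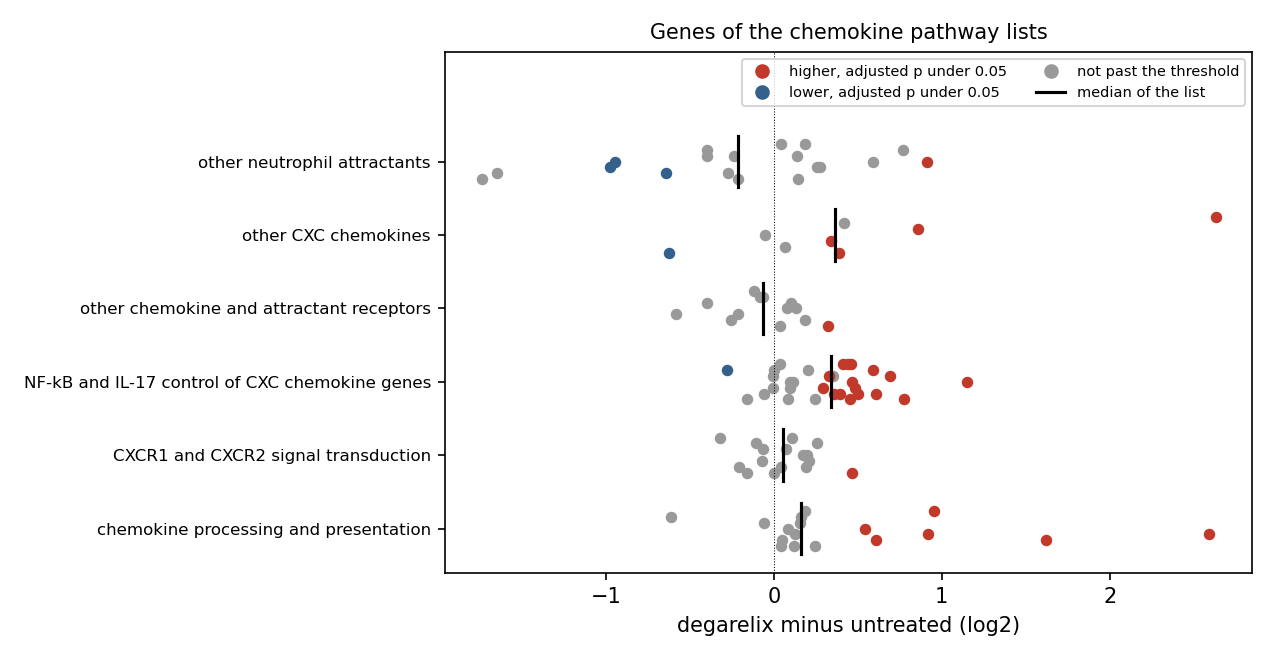
Differences between degarelix and untreated tumor cells (log2, horizontal axis) for the 103 measured genes of the 6 pathway lists, 1 point per gene, with black lines for list medians; red and blue mark genes higher and lower at an adjusted p under 0.05. The NF-kB and interleukin-17 list has 16 red points and 1 blue point around a median of 0.34.

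Of the 8 other CXC chemokine genes 4 rose and 1 fell (median 0.36). Cxcl17, a mucosal chemokine gene, measured 10.23, 10.56 and 11.06 in degarelix replicates 1, 2 and 3, against 8.60, 7.60 and 7.75 in untreated replicates 1, 2 and 3. It rose by 2.63 (SE 0.28, limma adjusted p = 7.57e-04), and its order among the samples differed from that of Cxcl15: the highest untreated value was in replicate 1 and the highest degarelix value in replicate 3. Cxcl14 rose by 0.86, the T cell attractant Cxcl9 by 0.39 and the CXCR4 ligand Cxcl12 by 0.34, while the interferon-induced Cxcl10 fell by 0.62. These 4 calls each depended on single arrays. All values of Cxcl10 (5.28 to 6.26) and Cxcl12 (5.49 to 6.01) were within the background range. Without degarelix replicate 1 the limma adjusted p was 0.13 for Cxcl14, 0.0693 for Cxcl9, 0.0963 for Cxcl12 and 0.0535 for Cxcl10. Without degarelix replicate 2 it was 0.0933 for Cxcl14, 0.0869 for Cxcl9 and 0.0684 for Cxcl12. It was 0.0516 for Cxcl14 without degarelix replicate 3, 0.0692 for Cxcl9 and 0.0621 for Cxcl12 without untreated replicate 2, and 0.0747 for Cxcl9 and 0.1 for Cxcl12 without untreated replicate 3. Median centring ended the calls of Cxcl14 (0.0691) and Cxcl12 (0.0559), and the replicate number as a block that of Cxcl14 (0.056).

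A mixed list outside the CXC family held neutrophil attractants, cytokines and growth factors, not all of which attract neutrophils themselves. Of its 19 measured genes, 1 rose and 3 fell, with a median difference of -0.21, beside 4.19% higher and 7.51% lower over all genes. The 3 were the serum amyloid A genes: Saa3 measured 6.37, 6.21 and 6.13 in degarelix replicates 1, 2 and 3, against 7.24, 7.02 and 7.30 in untreated replicates 1, 2 and 3, and fell by 0.95 (SE 0.10, limma adjusted p = 6.94e-04). Saa2 and Saa1, whose sequences are near-identical and may share signal, fell by 0.98 and 0.64 (limma adjusted p = 0.014 and 0.0272). Csf1, the macrophage growth factor gene, rose by 0.91 (SE 0.18, limma adjusted p = 0.0141). Without degarelix replicate 1 the calls of Csf1 (0.0624), Saa2 (0.0516) and Saa1 (0.106) were lost, and that of Saa1 also with median centring (0.0511) and without degarelix replicate 2 (0.0885), untreated replicate 2 (0.0687) or untreated replicate 3 (0.0894). The lowest difference in this list was that of the cytokine gene Il1a. Its values were 4.81, 4.86 and 5.02 in degarelix replicates 1, 2 and 3, against 8.17, 5.37 and 6.35 in untreated replicates 1, 2 and 3. Its difference was -1.74 (SE 0.57, limma adjusted p = 0.0874), short of the threshold, and it passed with array weights (-1.23, 0.0486) and on leaving out untreated replicate 1 (-0.97, 0.0362) or untreated replicate 2 (-2.37, 0.0144). The untreated order of Il1a was that of Pf4. The degarelix values of Il1a and Saa3 were within the background range, as were the Il1a values of untreated replicates 2 and 3. Without untreated replicate 1, all Il1a values compared were therefore within it.

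Of 13 other chemokine and attractant receptor genes 1 rose and none fell in limma (median -0.07; 2 fell at an unadjusted p under 0.05), and none lay above every background value on all arrays of either group. The 1 was Ackr1, an atypical receptor that binds chemokines without signalling, at 5.19, 5.01 and 4.99 in degarelix replicates 1, 2 and 3 and 4.84, 4.67 and 4.71 in untreated replicates 1, 2 and 3, all within the background range. It rose by 0.32 (limma adjusted p = 0.0393), a call lost with median centring (0.0565) and cyclic loess (0.0519) and without degarelix replicate 1 (0.137), degarelix replicate 2 (0.0931), untreated replicate 2 (0.135) or untreated replicate 3 (0.124). The lowest difference was that of Cxcr4, -0.58 (limma adjusted p = 0.18), which passed without untreated replicate 2 (-0.89, 0.0135). Of 16 genes that act downstream of CXCR1 and CXCR2, the beta-arrestin gene Arrb1 rose by 0.46 (SE 0.09, limma adjusted p = 0.0107) and none fell (median 0.06; 0 fell at an unadjusted p under 0.05). The signalling regulator Rgs1 was lowest, at -0.32 (limma adjusted p = 0.252).

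Of 17 genes whose products cleave chemokines or hold them at the cell surface, 6 rose and none fell in limma (median 0.16; 1 fell at an unadjusted p under 0.05), and the 5 with the lowest adjusted p are given here. Mmp7, the epithelial matrix metalloproteinase matrilysin, measured 8.35, 8.58 and 8.65 in degarelix replicates 1, 2 and 3, against 5.23, 6.82 and 5.75 in untreated replicates 1, 2 and 3, and rose by 2.59 (SE 0.33, limma adjusted p = 0.00197). Its values in untreated replicates 1 and 3 were within the background range. The gelatinase gene Mmp2 rose by 1.62 (SE 0.20), and Mmp14, whose product activates it, by 0.96 (SE 0.17). Sdc4, which encodes the heparan sulfate carrier syndecan-4, rose by 0.61 (SE 0.11), and Ext1, which builds heparan sulfate chains, by 0.54 (SE 0.07). Mmp12, a macrophage elastase gene, had the lowest difference, -0.61 (limma adjusted p = 0.112), and passed without untreated replicate 2 (-0.91, 0.00182). All Mmp12 values (4.22 to 5.29) were within the background range. Among 9 measured fibroblast markers, Dcn and Fbln1 rose by 1.46 and 1.07 and none fell (median 0.27; 1 fell at an unadjusted limma p under 0.05), with a summed level (log2) of 11.41 to 12.07 in degarelix cells and 11.38 to 11.71 in untreated cells. Their part in the rises of Mmp2 and Mmp14 was not tested. Over all genes 4.19% were higher and 7.51% lower.

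Neutrophils are the main cells that respond to these chemokines. The sort selected against cells with the immune markers CD45 and CD11b, so the values below do not tell whether neutrophils entered the tumors. Of 14 measured neutrophil markers, none exceeded the brightest background value on any array, the highest single value being 5.98. The summed level of the 14 (log2) was 8.57 to 8.75 in degarelix cells and 8.54 to 8.61 in untreated cells. S100a8 averaged 3.69 ± 0.31 in degarelix and 3.65 ± 0.17 in untreated cells (SD, n = 3 each), and Mpo averaged 5.31 ± 0.12 and 5.17 ± 0.04. Ltf, which encodes lactoferrin and is also made by glandular epithelium, and Ly6g rose by 0.48 and 0.38 (limma adjusted p = 0.00864 and 0.0474), none fell (1 at an unadjusted p under 0.05), and the median difference was 0.06. Over the 7 marker lists 7 of 75 measured genes rose and 2 fell, beside 4.19% higher and 7.51% lower over all genes. The Ly6g call was lost on leaving out degarelix replicate 1 (0.168) or 2 (0.169) or untreated replicate 1 (0.0841), 2 (0.11) or 3 (0.101), with median centring (0.068), cyclic loess (0.0609) and quantile normalization (0.0511), and with the replicate number as a block (0.0603).

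Among 9 platelet and megakaryocyte markers Selp, the P-selectin gene, rose by 0.63 (limma adjusted p = 0.0202) and none fell (median 0.19; 0 at an unadjusted p under 0.05). The Selp call was lost with median centring (0.0611) and cyclic loess (0.0686) and without degarelix replicate 1 (0.0632), untreated replicate 2 (0.0597) or untreated replicate 3 (0.0681). All Selp values (5.33 to 6.33) were within the background range. The summed level of the 9 markers (log2) was 9.32 to 9.46 in degarelix and 9.04 to 9.19 in untreated cells. Among the 15 macrophage and monocyte markers Ly6c2 rose by 1.57 (SE 0.12, limma adjusted p = 2.20e-04) and none fell (2 at an unadjusted p under 0.05), with a median difference of -0.38. Of 9 endothelial markers Vwf fell by 0.71 (limma adjusted p = 0.0075) and none rose (median -0.19; 0 rose at an unadjusted p under 0.05). Of 9 lymphocyte markers none passed in limma and 0 did so at an unadjusted p under 0.05, with a median of 0.10. Over all genes 4.19% were higher and 7.51% lower.

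**Figure D5:**
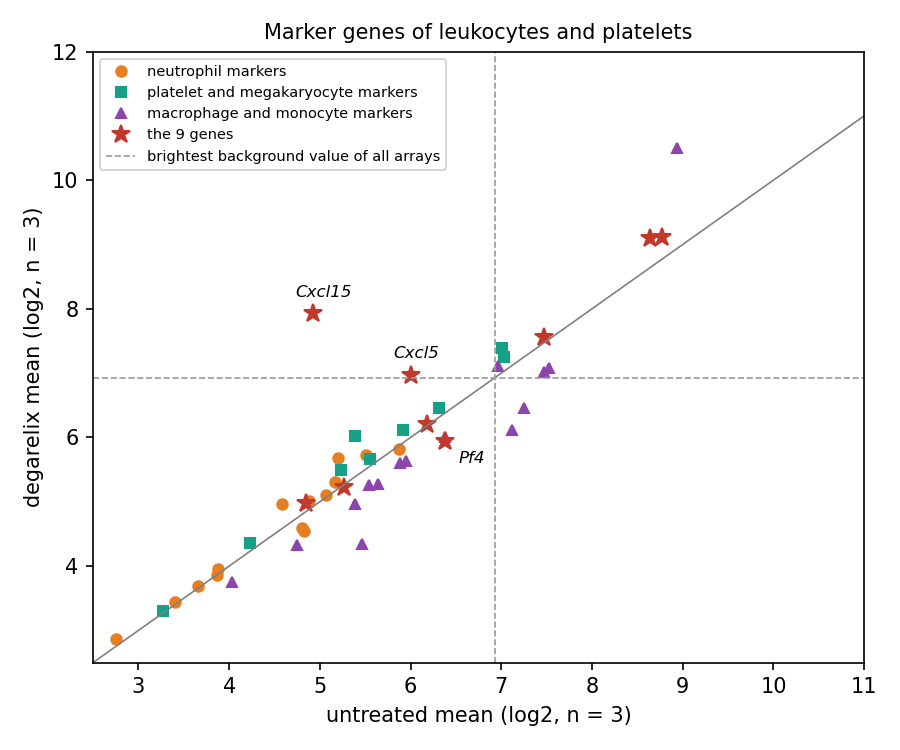
Mean expression in degarelix cells (vertical axis, log2, n = 3) against untreated cells (horizontal axis, log2, n = 3) for neutrophil, platelet and macrophage markers and the 9 genes (stars); the solid line marks equal values and the dashed lines the highest background value, 6.93. All neutrophil markers lie below both dashed lines, and Cxcl15 lies far above the line of equal values.

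Unnamed gene models and small RNAs were left out of the search for genes like Cxcl15. Among the other genes, those whose 6 values were most like those of Cxcl15 were Obp2a, Plekhs1, Cpm, Itih2 and Vtn. Likeness was the root mean square distance between values centred on each gene's own mean, over the 6 samples, and it was 0.21, 0.31, 0.36, 0.42 and 0.43 (log2) for these genes. Obp2a, a lipocalin gene, measured 12.75, 12.79 and 12.84 in degarelix replicates 1, 2 and 3, against 9.25, 9.67 and 9.99 in untreated replicates 1, 2 and 3. Like Cxcl15 it was lowest in untreated replicate 1, but within degarelix cells it was lowest in replicate 1 and Cxcl15 in replicate 3. The difference between the groups, from 2.38 for Itih2 to 3.54 for Plekhs1, makes up most of this likeness, since all 5 genes were higher in every degarelix sample.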

How the data were processed

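RNA of sorted tumor cells was hybridised to Affymetrix MTA 1.0 arrays, 1 per tumor. The deposited table holds log2 values that the authors made with Affymetrix Expression Console and RMA, per the submitters' processing notes; the sources used here name no version, setting or genome build. RMA removes shifts shared by a whole array and compresses changes of dim genes. Of 72688 deposited rows, 6732 control and background rows were left out of the tests. Of 65956 transcript clusters 30604 had 1 gene symbol, 2146 several and 33206 none in the platform annotation; 827 symbols were updated through Entrez identifiers with RefSeq (GRCm38.p6), and the brightest cluster of each gene was tested. The number of arrays, 3 per group, limits the precision.

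Groups follow the labels, which call the samples biological replicates. The groups were set against each other with limma 3.58.1 (R 4.3.3), two-sided, a step first tested on simulated data. There it found 95 of 100 changes of 1 (log2) and 49 of 100 changes of 0.5, and called 6 of 29942 unchanged genes. In the simulation 200 genes were changed, against 3526 called in the data, so these shares need not hold for the data. A gene that did not pass may still have changed by 0.5, or by more where its values spread widely. Il1a, for example, did not pass with a difference of -1.74. The members, lists and motifs were chosen with earlier results of these data known. The text names the members, the list genes with the lowest adjusted p in each direction and the list extremes, called marker genes, the neighbours on the chromosome and the 5 genes most like Cxcl15, unnamed gene models and small RNAs left out. Other list genes named beside these (such as Epcam, Krt8, S100a8, Ptprc, Rel and Relb) were chosen after their values were seen. Protein sequences were not analysed here. Alternatives were 3 normalizations, variance and array weights, filters, cluster means, the replicate block, a minimum change and leaving out each array. Figures used Python 3.11.15 and matplotlib 3.10.9.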

Additional observations from a re-analysis of the deposited data

How the results depend on the processing

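Cxcl15 and Cxcl5 passed the test under all 16 alternatives, with differences of 2.84 to 3.13 and 0.88 to 1.05; Cxcl2 passed under 8 of 16 (0.35 to 0.59), Pf4 under 1 of 15, and Cxcl1, Cxcl3, Ppbp, Cxcr2 and Cxcr1 under none. The count of the 9 genes that passed was 2 or 3 throughout. Filtering to genes above the brightest background on 3 arrays left 5 of the 9. The difference of Cxcr1 changed sign with median centring (-0.0181) and cyclic loess (-0.00815), and leaving out single arrays gave -0.0496 to 0.0881; that of Cxcr2 did with array weights (0.00293). So did the neighbouring genes Albfm1 (-0.0346 with cyclic loess, -0.00476 with quantile normalization) and Epgn (-0.00634 with median centring, -0.0253 with cyclic loess, -0.0164 with quantile normalization, -0.0314 to 0.115 on leaving out single arrays), and none of these passed the test there. Of 30142 genes 3526 passed (35.8% of them higher), against 9912 with array weights (51.0% higher) and 749 in the test against a 1.2-fold change, and leaving out 1 array gave 1590 to 4700, with 1590 without degarelix replicate 1, 1833 without degarelix replicate 2, 2113 without untreated replicate 2 and 1972 without untreated replicate 3. With median centring 26.3% of the called genes were higher, and with quantile normalization 44.9%. Of the pathway list genes 34 passed, against 6 in the 1.2-fold test and 15 to 40 on leaving out 1 array (15 without degarelix replicate 1, 21 without degarelix replicate 2). Of 75 measured marker list genes 9 passed, beside 11.7% of all genes. Their count was 24 with array weights, 3 in the 1.2-fold test and 6 to 16 on leaving out 1 array (16 without untreated replicate 2). The 1.2-fold test asks for more than a difference from 0, and leaving out an array leaves fewer samples; the cause was not tested elsewhere. The replicate numbers were not taken to pair the samples: same-numbered samples deviated together with correlations of 0.16, 0.04 and 0.20, although each sample correlated best with its own number, a hint from the data and not the design. With the replicate number as a block 3806 genes passed, Cxcl15 had the same difference (limma adjusted p = 4.38e-04) and Cxcl2 lost its call (0.067). Levels within the background range limit what can be said of Ppbp, Pf4, Cxcr2, Cxcr1, Albfm1 and Epgn, and of untreated Cxcl15 and Cxcl5.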

Other observations

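Macrophage-associated genes beyond Pf4 and Il1a showed the same order among untreated tumors. Tyrobp, an adaptor of myeloid receptors, measured 8.39, 6.11 and 6.84 in untreated replicates 1, 2 and 3, where the 3 degarelix values lay between 6.06 and 6.21. Ms4a7, a macrophage membrane protein gene, measured 6.53, 4.55 and 5.32 in untreated replicates 1, 2 and 3, and 4.22 to 4.46 in degarelix cells. C1qb, a complement subunit gene, measured 8.23, 6.41 and 7.10 in untreated replicates 1, 2 and 3, and 6.32 to 6.58 in degarelix cells. All values of Ms4a7, and the degarelix and untreated replicate 2 values of Tyrobp and C1qb, were within the background range. In untreated replicate 1, which held the highest values of these genes and the highest Pf4, the values of Cxcl15, Cxcl5, Cxcl1, Cxcl2 and Ppbp were the lowest of the untreated group and that of Cxcl3 was the highest. These genes were picked out after their values were seen.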
